A study of Rattus norvegicus with 6 samples.

Results

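Voltage-gated calcium and sodium channels are the membrane proteins that carry calcium and sodium into a cell when its membrane potential rises. Their genes were taken as all gene symbols of the count files that begin with Cacna1, Cacna2d, Cacnb or Cacng followed by a number or letter, or that consist of Scn, a number and a or b. The rule uses names only and found 40 genes among 33294 gene symbols. Of these, 20 encode pore-forming subunits and 20 encode auxiliary subunits, and 36 of the 40 genes (17 pore-forming, 19 auxiliary) had enough counts to be tested between the groups.

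The libraries were made from pituitary glands of male Sprague-Dawley rats aged 11 weeks, with 1 library per rat. Whether each gland was taken whole, with both lobes, is not stated in the sources used here. The 3 rats of the nicotine group were born to dams that carried a 28-day osmotic mini-pump under the skin delivering nicotine tartrate in saline, labelled as 6 mg/kg/day, and the 3 rats of the control group to dams whose pump held saline alone. Both groups therefore share surgery, pump and saline, and the comparison asks how the adult gland differed after nicotine was given to the dam. The treatment description dates birth to gestational day 19 and to 13 days after pump surgery, so a 28-day pump would have outlasted birth, and the sources used here do not say whether it was removed, how many dams were used, or whether rats of a group were littermates. If rats of a group shared a litter, the p-values below measure spread within litters.

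The pore of a voltage-gated calcium channel is a single large alpha1 protein. L-type channels open at strong depolarization and stay open long, P/Q-, N- and R-type channels serve transmitter release, and T-type channels open near the resting potential and inactivate quickly. Auxiliary alpha2delta and beta subunits bring the pore to the membrane and tune its gating, while most gamma subunits are known chiefly as partners of AMPA-type glutamate receptors (TARPs). The pore of a sodium channel is likewise 1 alpha protein, joined by small beta subunits. In the pituitary, endocrine cells fire calcium and sodium action potentials on their own, and the calcium that enters drives hormone release.

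Library totals lay between 46239801 and 85977002 counts in the nicotine group and between 28318383 and 54309256 counts in the control group, so the control libraries were on the whole shallower. Levels below are CPM, the counts of a gene scaled to a common library total, after TMM scaling of the library sizes. CPM is not corrected for transcript length, so levels were compared between libraries and not between genes. Differences are log2 fold changes of nicotine over control from edgeR's quasi-likelihood fit across 17292 genes, with a standard error (SE), and means carry the SD over 3 rats. The tissue label was checked against marker genes: the growth hormone gene Gh1 was at 52429 to 115788 CPM and the prolactin gene Prl at 17547 to 38038 CPM, whereas 5 germ cell genes of the testis, the organ named in the extraction protocol of the labels, summed to at most 0.0849 CPM, with Ddx4 at 0 in every library. In RNA of a gland with many cell types, fewer cells of a type and less RNA per cell cannot be told apart.

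Among the channel genes, 0 of 36 passed the study's thresholds (fold change over 1.5, adjusted p under 0.1) in edgeR, where 0% of all genes tested did, and the adjusted p-values of the 36 genes ran from 0.76 to 0.996. DESeq2 called 62 of 17876 genes (0.347%) at the same thresholds, 0 of them channel genes, and the smallest adjusted p of a channel gene in DESeq2 was 0.304. At an unadjusted p under 0.05 in edgeR, 4 of 36 channel genes stood out (11.1%, beside 6.14% of all genes tested). The 3 T-type calcium pore genes Cacna1g, Cacna1h and Cacna1i were higher after nicotine, in a direction taken by 3.13% of all genes at that p, and the sodium pore gene Scn2a was lower, as were 3.01% of all genes. Nicotine and control libraries were fully separated for 5 of 36 channel genes (13.9%), close to the 11.3% of all genes tested, with Cacna1g, Cacna1i, Cacng4 and Cacng7 higher (6.12% of all genes) and Scn2a lower (5.14% of all genes).

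**Figure D1:**
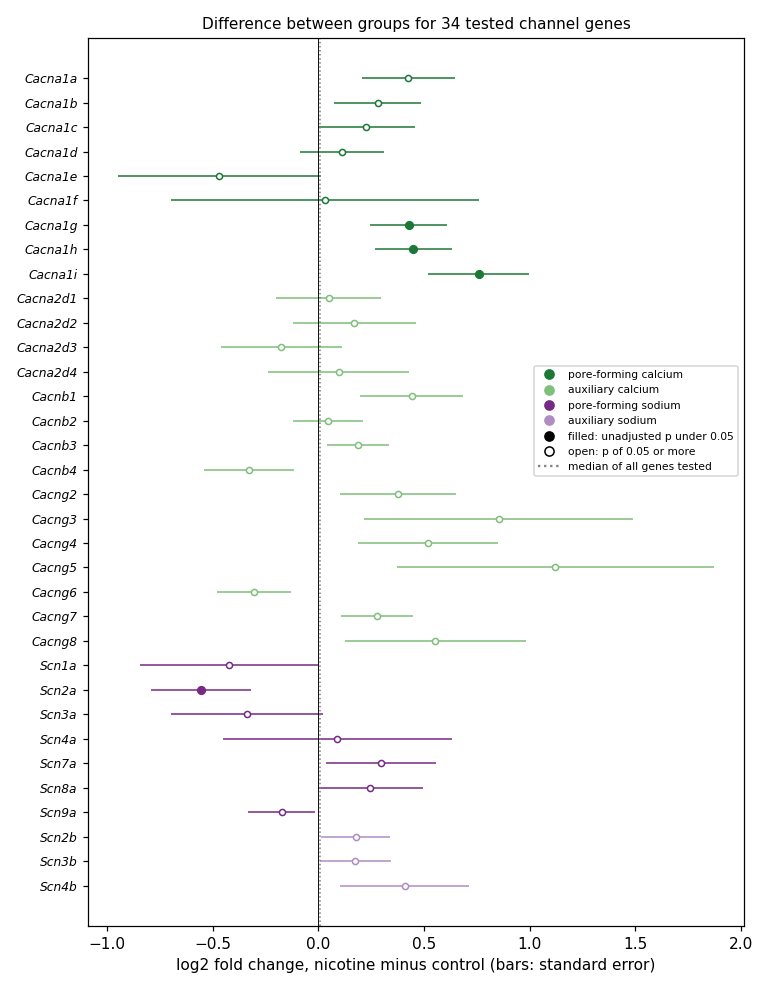
Log2 fold change of nicotine over control on the x axis for 34 of the 36 tested channel genes, with bars of 1 standard error, coloured by kind of subunit and filled where the unadjusted edgeR p was under 0.05. The 3 T-type genes and Scn2a are filled, and 26 of 34 points lie above 0, beside 51% of all genes tested.

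The log2 fold change was above 0 for 28 of the 36 genes (77.8%), beside 51% of all genes tested, and the median over the 36 was 0.20 beside 0.01 over all genes. The genes share 6 libraries and are not independent of each other, so the share was not tested. Pore-forming subunits had a median of 0.23 and auxiliary subunits of 0.19. By channel kind, the median was 0.28 for pore-forming calcium subunits (8 of 9 above 0), 0.19 for auxiliary calcium subunits (12 of 15), -0.04 for pore-forming sodium subunits (4 of 8) and 0.20 for auxiliary sodium subunits (4 of 4). Nicotine 2 was the highest library for 13 of the 36 genes and nicotine 3 for 12, while control 1, the shallowest library, was the lowest for 15. At the other end, nicotine 2 and nicotine 3 were each lowest for 4 of the 36, and control 1 was highest for 2. Over all genes tested, nicotine 2 was highest for 26.9% and lowest for 26.8%, and nicotine 3 highest for 16.5% and lowest for 13.7%. Control 1 was highest for 20.2% of all genes and lowest for 19.1%.

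**Figure D2:**
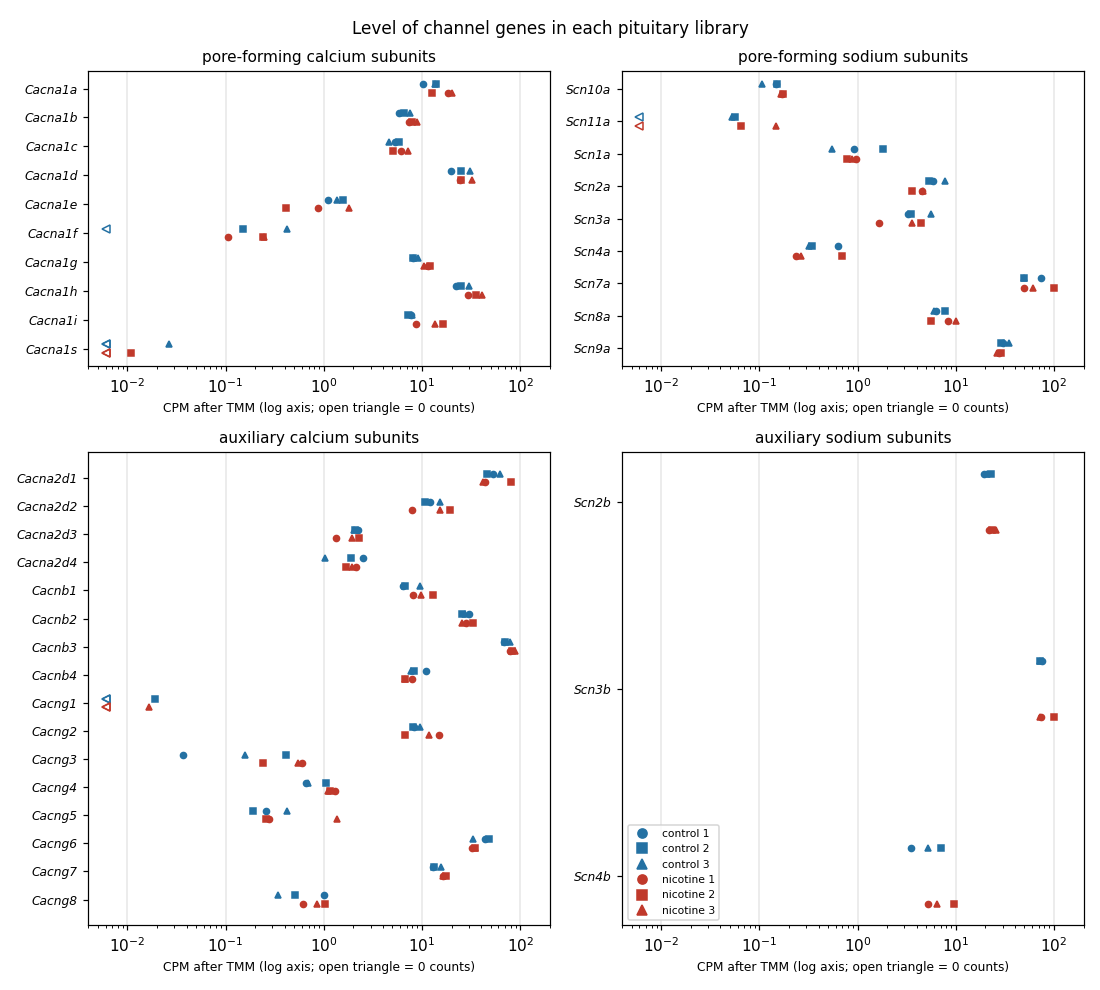
CPM of 38 of the 40 channel genes in each of the 6 libraries on a log axis, with pore-forming and auxiliary subunits of calcium and sodium channels in separate panels. Open triangles mark libraries with 0 counts, and for most genes the blue control and red nicotine points lie over the same range.

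The T-type pore genes held the largest difference among the calcium pores. Cacna1i encodes the Cav3.3 pore, which inactivates most slowly of the T-type channels. Its level was 8.78, 16.3 and 13.5 CPM in nicotine 1, 2 and 3 and 7.75, 7.19 and 7.98 CPM in control 1, 2 and 3. All nicotine libraries lay above all controls, but nicotine 1 exceeded the highest control by less than 1 CPM while the other two stood well apart. The means were 12.9 ± 3.80 and 7.64 ± 0.407 CPM, a log2 fold change of 0.76 (SE 0.24), that is 1.69-fold, with an unadjusted p of 0.00909 and an adjusted p of 0.760 in edgeR. Without nicotine 2 the log2 fold change was 0.54, and without nicotine 1 it was 0.97.

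Cacna1h encodes Cav3.2, the T-type pore that nickel blocks most readily. It was at 29.2, 35.2 and 40.6 CPM after nicotine and at 22.0, 25.1 and 29.8 CPM in controls. The groups overlapped, since nicotine 1 lay just below control 3. This was a log2 fold change of 0.45 (SE 0.18), with an unadjusted p of 0.0328 and an adjusted p of 0.806 in edgeR. Cacna1g encodes Cav3.1, known for rhythmic burst firing in the thalamus. Its level was 11.4, 12.1 and 10.6 CPM after nicotine and 8.09, 8.11 and 9.14 CPM in controls, with no overlap. The log2 fold change was 0.43 (SE 0.18), with an unadjusted p of 0.0407 and an adjusted p of 0.806 in edgeR. When the counts of all libraries were thinned to the smallest total, its log2 fold change was 0.31 with an unadjusted p of 0.146.

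**Figure D3:**
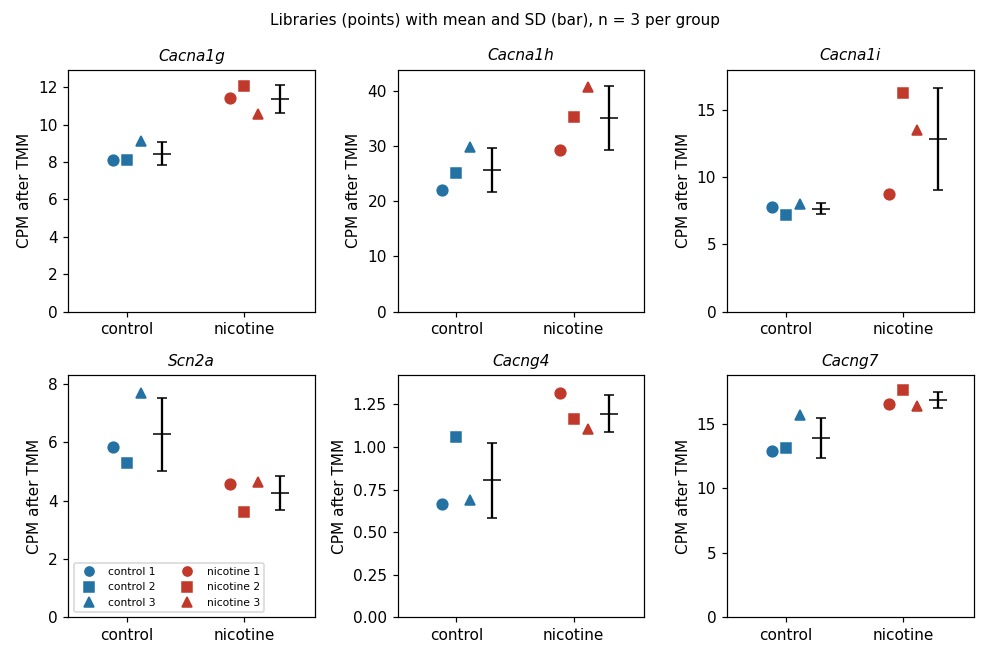
CPM in each library, with mean and SD for 3 rats per group, of the channel genes with an unadjusted p under 0.05 or with groups that did not overlap. The groups are apart for every gene shown except Cacna1h, where nicotine 1 (29.2 CPM) lies below control 3 (29.8 CPM).

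Summed over the 3 T-type genes, the level was 49.4 to 64.8 CPM after nicotine and 37.8 to 46.9 CPM in controls, without overlap. The sum over all calcium pore genes did not overlap either, with 106.8 to 134.9 CPM after nicotine and 79.9 to 105.1 CPM in controls. The sums of the L-type genes and of the P/Q-, N- and R-type genes did overlap. As a share of all calcium pore counts, however, T-type counts were 46.2% to 55.3% after nicotine and 43.2% to 47.3% in controls, and the groups overlapped. The L-type share was 28.2 ± 1.58% (26.3% to 29.2%) after nicotine and 32.8 ± 1.38% (31.2% to 33.9%) in controls, lower in every nicotine library. These shares add counts of genes with different transcript lengths and serve only to compare libraries.

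The tested L-type genes themselves had log2 fold changes of 0.03 to 0.23. Cacna1d encodes Cav1.3, an L-type pore that opens at lower voltages and is known for pacemaking in endocrine cells. It was at 24.6, 24.9 and 31.9 CPM after nicotine and at 19.7, 25.0 and 30.6 CPM in controls, so that the groups covered almost the same range. Its log2 fold change was 0.11 (SE 0.20, adjusted p 0.923 in edgeR), with a 95% interval of -0.33 to 0.55. Cacna1c, the L-type pore Cav1.2 of heart and smooth muscle, had a log2 fold change of 0.23 (95% interval -0.28 to 0.73) at levels between 4.57 and 7.22 CPM. Cacna1f, the L-type pore of photoreceptors, did not exceed 0.423 CPM and had a wide 95% interval of -1.58 to 1.64. Cacna1s, the skeletal muscle pore, had 1 count in each of 2 libraries and 0 in the rest, and was not tested. A count of 0 allows levels of up to 0.0326 to 0.111 CPM (3 counts) depending on the library, counting error only.

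Among the pores of transmitter release, Cacna1a, the P/Q-type pore Cav2.1, was at 18.4, 12.7 and 20.0 CPM after nicotine and at 10.2, 14.0 and 13.6 CPM in controls. Nicotine 1 and 3 were above every control, while nicotine 2 was below 2 of the 3 controls. The log2 fold change was 0.42 (SE 0.22, adjusted p 0.813 in edgeR) and 0.59 without nicotine 2. Cacna1b, the N-type pore, was at 7.34 to 8.97 CPM after nicotine and 5.83 to 7.58 CPM in controls, with a log2 fold change of 0.28 (SE 0.21). Cacna1e, the R-type pore, was the only calcium pore below 0, with a log2 fold change of -0.47 (SE 0.48) and levels spread from 0.412 CPM in nicotine 2 to 1.78 CPM in nicotine 3.

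The sodium pores showed no common direction, with 4 of 8 tested genes on either side of 0. Scn2a encodes Nav1.2, a pore known from unmyelinated axons. Its level was 4.58, 3.60 and 4.64 CPM after nicotine and 5.83, 5.28 and 7.69 CPM in controls. Every nicotine library lay below every control, and control 3 was the highest by a clear margin. This gave a log2 fold change of -0.55 (SE 0.24), with an unadjusted p of 0.0402 and an adjusted p of 0.806 in edgeR. Without control 3 it was -0.38 with an unadjusted p of 0.182.

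Scn2a belongs to the sodium pores that tetrodotoxin blocks at low concentration (Scn1a, Scn2a, Scn3a, Scn4a, Scn8a and Scn9a). The summed level of these 6 genes was 43.3 to 45.7 CPM after nicotine and 47.1 to 55.3 CPM in controls, without overlap, with 4 genes below 0 and 2 above. Scn9a held most of their counts, 57.7% to 65.9% after nicotine and 60.5% to 63.9% in controls. Scn2a made up 9.62 ± 1.31% of their counts after nicotine (8.13% to 10.6%) and 12.5 ± 1.37% in controls (11.2% to 13.9%), so its share was lower in every nicotine library. Scn9a encodes Nav1.7, known for setting the firing threshold of pain-sensing neurons. It was at 27.5, 29.2 and 26.4 CPM after nicotine and at 30.1, 28.6 and 35.03 CPM in controls, overlapping through nicotine 2 and control 2. Its log2 fold change was -0.17 (SE 0.16). Scn3a (-0.34) and Scn1a (-0.42) were also below 0, with overlapping groups, but Scn1a was at 0.26 without control 2 and Scn3a at -0.04 without nicotine 1 or without control 3. Scn8a, the pore of the nodes of Ranvier, was at 0.25, and Scn4a, the skeletal muscle pore, at 0.09 with levels up to 0.695 CPM.

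Scn7a encodes Nax, a relative of the sodium pores known as a sensor of sodium concentration rather than of voltage. It was at 49.1, 100.4 and 61.5 CPM after nicotine and at 73.1, 49.6 and 49.3 CPM in controls. Nicotine 2 was the highest and nicotine 1 the lowest of the 6 libraries, and nicotine 3 lay within the control range. A log2 fold change of 0.30 (SE 0.26, adjusted p 0.849 in edgeR) became -0.05 without nicotine 2. Scn10a and Scn11a, pores of sensory neurons, had 4 to 16 and 0 to 9 counts per library and were not tested.

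In the RefSeq gene order of the rat assembly GRCr8, several channel genes stand next to each other with no other protein-coding gene between them. On chromosome 3, Scn3a neighbours Scn2a, and Scn1a, Scn9a and Scn7a follow each other. The genes of the latter run had log2 fold changes of -0.42, -0.17 and 0.30. Cacng6, Cacng8 and Cacng7 adjoin on chromosome 1, Cacng1, Cacng4 and Cacng5 on chromosome 10, and Scn2b and Scn4b on chromosome 8. The GRCr8 promoter table of RefSeq held 30 start-site windows of 27 of the 40 channel genes. It held none for the T-type genes Cacna1g, Cacna1h and Cacna1i or for Cacng4 and Cacng7. The following 250 bases before the start site are shown for Scn2a, the separated sodium pore, for its neighbour Scn3a and for Scn8a, whose log2 fold change had the other sign. They are read 5′ to 3′ on the strand of the gene, and capitals mark each CG dinucleotide.
Scn2a, chr3:70710706-70710955, plus strand: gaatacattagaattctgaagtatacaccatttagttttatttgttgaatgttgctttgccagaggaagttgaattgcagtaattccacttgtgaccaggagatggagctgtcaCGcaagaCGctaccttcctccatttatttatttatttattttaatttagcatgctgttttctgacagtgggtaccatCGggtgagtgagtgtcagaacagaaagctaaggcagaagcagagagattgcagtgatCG
Scn3a, chr3:70666199-70666448, minus strand: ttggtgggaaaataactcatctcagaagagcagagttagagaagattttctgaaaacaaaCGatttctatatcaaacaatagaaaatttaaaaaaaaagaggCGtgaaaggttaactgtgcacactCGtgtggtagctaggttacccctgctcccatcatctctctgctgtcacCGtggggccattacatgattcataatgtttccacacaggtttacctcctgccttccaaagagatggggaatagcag
Scn8a, chr7:133860977-133861226, plus strand: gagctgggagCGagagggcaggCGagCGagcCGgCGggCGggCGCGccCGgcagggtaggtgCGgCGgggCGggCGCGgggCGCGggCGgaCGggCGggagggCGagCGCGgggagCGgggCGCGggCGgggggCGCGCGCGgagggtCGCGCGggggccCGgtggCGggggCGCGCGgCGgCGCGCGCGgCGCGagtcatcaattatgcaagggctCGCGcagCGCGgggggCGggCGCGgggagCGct

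The neighbours Scn2a and Scn3a each had 4 CG dinucleotides in these 250 bases, whereas Scn8a had 53. These genes were picked by position and by the sign of a difference that for Scn8a was 0.25 (SE 0.25), so their counts cannot show a link to direction. Over windows of 300 bases (250 before and 50 after the start), the median GC content was 62.3% for the 30 channel gene windows and 51.7% for all 33469 windows of the table. The GC box letters GGGCGG were found on either strand in 53.3% of the channel windows and 33.1% of all windows, CCAAT in 16.7% and 37.5%, and TATAAA in 6.67% and 14.2%. Channel genes with log2 fold changes below 0 had 4 (Scn2a) to 42 (Cacna2d3) CG dinucleotides in these windows. Those above 0 had 2 (Scn7a, Scn2b and Cacng5) to 66 (Cacna1d), and a relation of CG count to direction was not tested. Both ranges cover only genes with a window, so the T-type genes, Cacng4 and Cacng7 are not in them. Such matches describe letters only, and several windows belong to 1 gene.

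Of the auxiliary calcium subunits, beta subunits bind the pore inside the cell. Cacnb3 was at 78.2, 81.8 and 88.1 CPM after nicotine and 68.1, 70.7 and 79.1 CPM in controls. Only nicotine 1 lay within the control range, and the log2 fold change was 0.19 (SE 0.15, adjusted p 0.841 in edgeR) with a 95% interval of -0.13 to 0.51. The log2 fold changes of the other beta genes were 0.44 (SE 0.24) for Cacnb1, 0.05 for Cacnb2 and -0.33 (SE 0.21) for Cacnb4. Among the alpha2delta genes, Cacna2d1, which encodes a binding site of gabapentin, was at 43.3, 80.4 and 41.8 CPM after nicotine and 52.4, 45.6 and 62.1 CPM in controls. Nicotine 2 was the highest and the other two nicotine libraries the lowest of all, and the log2 fold change of 0.05 (SE 0.25) turned to -0.33 without nicotine 2. Cacna2d2, Cacna2d3 and Cacna2d4 had log2 fold changes of 0.17, -0.18 and 0.10, with overlapping groups.

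The 6 tested TARP genes (Cacng2, Cacng3, Cacng4, Cacng5, Cacng7 and Cacng8), whose products escort AMPA receptors, all had log2 fold changes above 0, with a median of 0.54 and 0 of 6 at an unadjusted p under 0.05. Cacng7 was at 16.5, 17.6 and 16.4 CPM after nicotine and 12.9, 13.2 and 15.7 CPM in controls, apart by less than 1 CPM, with a log2 fold change of 0.28 (SE 0.17, adjusted p 0.827 in edgeR). Cacng4 was at 1.32, 1.16 and 1.11 CPM after nicotine and 0.665, 1.06 and 0.687 CPM in controls, again apart only narrowly at control 2, with a log2 fold change of 0.52 (SE 0.33, adjusted p 0.829 in edgeR). Cacng2, the stargazin gene, was at 0.38, with nicotine 2 (6.75 CPM) below every control and nicotine 1 (15.0 CPM) above them. The largest log2 fold change of all channel genes, 1.12 for Cacng5, came from nicotine 3 at 1.35 CPM, while the other 5 libraries lay at 0.189 to 0.423 CPM, and was -0.09 without nicotine 3. Cacng3 (0.85) and Cacng8 (0.55) were below 1.1 CPM in every library.

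Cacng6 encodes a gamma subunit related to the one of skeletal muscle. It was at 32.3, 34.8 and 34.9 CPM after nicotine and 44.1, 48.6 and 33.3 CPM in controls. Controls 1 and 2 stood above all other libraries while control 3 was among the nicotine values, and the log2 fold change was -0.30 (SE 0.17, adjusted p 0.821 in edgeR). Cacng1, the muscle subunit itself, had 1 count in each of 2 libraries and was not tested.

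The sodium beta subunits are cell-adhesion proteins that modify gating. Scn2b, Scn3b and Scn4b had log2 fold changes above 0 with overlapping groups. Scn3b was at 74.0, 101.2 and 72.4 CPM after nicotine and 75.6, 71.7 and 72.1 CPM in controls, so nicotine 2 alone stood apart. Its log2 fold change was 0.18 (SE 0.17) and -0.01 without nicotine 2. Scn2b was at 21.6, 23.6 and 25.9 CPM after nicotine and 19.4, 22.7 and 20.7 CPM in controls (log2 fold change 0.18, SE 0.16). Scn4b was at 5.20 to 9.60 CPM and 3.51 to 7.13 CPM (0.41). The sign of the log2 fold change turned for 11 of the 36 channel genes when 1 library was left out: Cacna1d, Cacna1f, Cacna2d1, Cacna2d2, Cacna2d4, Cacnb2, Cacng5, Scn1a, Scn3b, Scn4a and Scn7a. For 6 of the 36, Cacna1d, Cacnb2, Cacnb3, Scn2b, Scn3b and Scn9a, the 95% interval of the difference lay within a 1.5-fold change in either direction. For the other 30 genes the interval reached beyond it.

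Of 34 genes whose products bind, place or regulate these channels, 32 were tested, 15 with log2 fold changes above 0 and 17 below, with a median of -0.03 and 0 called by edgeR. At an unadjusted p under 0.05 in edgeR were 2 of the 32 (6.25%, beside 6.14% of all genes). Fgf12, an intracellular FGF homologous factor that binds the tail of sodium pores, was at 11.3, 9.19 and 10.7 CPM after nicotine and 14.1, 13.2 and 15.0 CPM in controls, without overlap (log2 fold change -0.44, SE 0.18, adjusted p 0.806 in edgeR). All 4 FGF homologous factor genes were below 0. Stac2, an adaptor that reduces inactivation of L-type channels, was at 2.27, 2.43 and 1.12 CPM after nicotine and 0.775, 1.21 and 0.740 CPM in controls (1.06, SE 0.38, adjusted p 0.779 in edgeR), with nicotine 3 within the control range.
Counting Fgf12, the groups did not overlap for 4 of the 32 (12.5%, close to the 11.3% of all genes tested), and the other three were Nalcn, Rims1 and Rimbp2. Nalcn, the sodium leak channel that depolarizes resting pituitary cells, was at 177, 179 and 152 CPM after nicotine and 216, 195 and 185 CPM in controls (-0.23, SE 0.15). Rims1, which tethers calcium channels at release sites, was at 0.38 (SE 0.20), and its partner Rimbp2 at 0.34 (SE 0.18), both higher after nicotine.

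Markers of several cell types leaned to 1 side, counted here by the sign of the log2 fold change, which was above 0 for 51% of all genes tested. EdgeR called 0 of them, and DESeq2 called the smooth muscle gene Acta2 (log2 fold change 2.09, adjusted p 0.00151 in DESeq2). Among the list sums below, only those of posterior-lobe hormone, neuron, and meningeal and fibroblast markers did not overlap between the groups. The posterior-lobe hormone genes Avp and Oxt, carried into the gland in hypothalamic axons, were both higher, with a summed level of 65.3 to 203 CPM after nicotine and 5.39 to 63.5 CPM in controls. Neuron markers were higher for 10 of 11 tested genes, with sums of 645 to 824 and 589 to 618 CPM. Snap25, Syt1 and Map2 in that list are also active in endocrine cells, and Gad2 was at or near 0. Pituicyte and astroglia markers were higher for 7 of 8 (108 to 157 and 80.8 to 125 CPM), endothelial markers for 6 of 6 (169 to 277 and 139 to 185 CPM), and smooth muscle and pericyte markers for 9 of 9 (56.1 to 217 and 47.0 to 64.5 CPM). Melanotroph markers, led by Pomc, were lower for 4 of 4 (20665 to 46577 and 36292 to 72399 CPM), as were meningeal and fibroblast markers for 8 of 8 (311 to 758 and 851 to 978 CPM), erythrocyte markers for 4 of 4 (3071 to 9690 and 7965 to 16197 CPM) and leukocyte markers for 7 of 7 (50.3 to 74.4 and 62.8 to 155 CPM). Without control 3, the melanotroph markers Pax7 and Oacyl turned to 0.26 and 0.10, while Pomc and Pcsk2 stayed at -0.37 and -0.22. Anterior hormone and receptor genes were higher for 9 of 13 and lower for 4. The groups did not overlap for 3 of the 13 (23.1%, beside 11.3% of all genes tested), all higher after nicotine. These were Lhb (log2 fold change 1.83, 0.89 without nicotine 2), Gnrhr (1.20 and 0.43) and Nr5a1 (0.74 and 0.15). Folliculostellate and stem cell markers were higher for 4 of 5 and Schwann and oligodendrocyte markers for 3 of 6. The 2 tested pineal and photoreceptor markers were lower, with Crx and Pde6b at 0. Nicotine 2, which was highest for Cacna1i, Scn7a, Cacna2d1 and Scn3b, was also the highest library for 26.9% of all genes tested and the lowest for 26.8%. It was highest in the sums of posterior-lobe hormone (203 CPM), neuron (824 CPM) and pituicyte and astroglia markers (157 CPM). The same held for the sum of anterior hormone and receptor genes (139189 CPM). Of the skeletal muscle markers, 3 of 10 were tested, and Ckm, Myh1, Myh4, Myl1 and Mb were at or near 0. The part of these cell types in the channel gene differences was not tested.

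**Figure D4:**
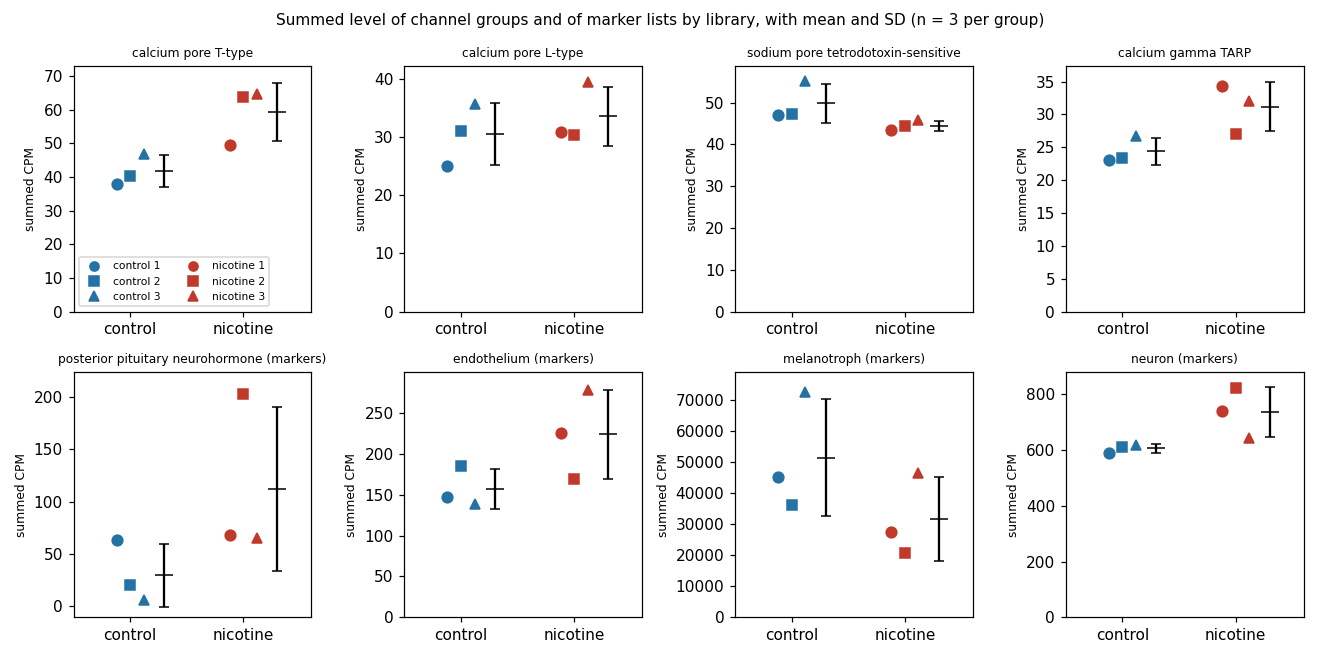
Summed CPM in each library, with mean and SD for 3 rats per group, of 4 groups of channel genes (top) and 4 lists of cell type markers (bottom). T-type, TARP, neuron and posterior-lobe hormone sums are higher in every nicotine library, and the tetrodotoxin-sensitive sum is lower in every one.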

How the data were processed

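RNA of 3 nicotine and 3 control pituitary glands was read as paired-end stranded libraries of 100 bases. The authors mapped the reads with HISAT2 (version 2.1.0 in the submitters' processing notes) to rn7 and deposited featureCounts counts per gene symbol of the UCSC ncbiRefSeq annotation, without normalization. The strand setting, the treatment of reads with several hits and whether reads or pairs were counted are not given in the sources used here, so counts of overlapping genes could be shared. The labels describe RNA extraction for testis only.

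The counts were analysed in R 4.3.3. filterByExpr of edgeR 4.0.16 kept 17292 genes, libraries were scaled by TMM (factors 0.957 to 1.07), and edgeR's quasi-likelihood test (no covariate) was run on nicotine against control, with Benjamini-Hochberg adjustment over all genes tested. The biological coefficient of variation was 23.6%. Totals of 28318383 to 85977002 counts limit the precision for genes of low level. As in the study's methods, calls needed both a fold change over 1.5 and an adjusted p under 0.1. Intervals of 95% were taken from the SE and the t distribution of the fit. Every library was given for channel genes that were among the 3 highest by mean CPM in their kind of subunit, had an unadjusted p under 0.05 or had groups without overlap. Partner genes were named on the last 2 criteria, and the role lists, partners and markers (15 lists) are from general knowledge. The values of 2 channel genes are not reported here, though both are in the counts and medians over groups of genes. The channel genes and all lists were chosen with earlier results of these data known. Replicate numbers were not treated as pairs in the main fit. The deviations of same-numbered libraries from their group means correlated at 0.0264, -0.198 and -0.0785, which cannot exclude a shared batch. DESeq2 1.42.0, limma 3.58.1 voom, other scalings, filters, thresholds and thinned counts, a replicate block and leaving out each library were run as alternatives. The fits were tested on simulated counts with planted changes larger than that of Cacna1i. That test therefore cannot show whether a difference of the size of Cacna1i would be called.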

Additional observations from a re-analysis of the deposited data

How the results depend on the processing

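The count of 0 channel genes called was the same under every alternative run. Over all genes, edgeR called 0 and DESeq2 62, while library sizes alone, voom and thinned counts each called 1, no filter on low counts 2, and the replicate block 2. Leaving out 1 library gave 0 to 9 calls, with 9 without nicotine 3, 4 without control 2 and 1 without nicotine 2. Channel genes at an unadjusted p under 0.05 numbered 4 in the main fit, 3 with library sizes alone (Scn2a lost) and 3 with thinned counts (Cacna1g lost). With voom they numbered 5, where Scn2a was lost (unadjusted p 0.0938 in voom) and Cacna1a and Cacng2 entered. There were 2 with the replicate block (Cacna1h and Cacna1i), and 1 to 5 with 1 library left out (1 without control 1). The count over all genes moved as well, from 1062 of 17292 in the main fit to 901 of 17292 with the replicate block. It was 681 of 17812 without control 1 and 1619 of 17844 without nicotine 1, where 3 of 36 channel genes reached that p. Whether same-numbered libraries share more than a number is not known, and the block changed no other call. Channel genes without overlap numbered 5 in the main fit, and 4 with library sizes alone and with thinned counts. They numbered 6 to 14 with 1 library left out (14 without nicotine 1 or nicotine 2, 13 without control 3, 8 without control 2), because fewer libraries overlap less often. The share of all genes without overlap was not counted in these smaller sets, so these numbers have no background and say nothing particular to channel genes. The median of the pore-forming sodium subunits, -0.04, was -0.28 with voom and -0.297 to 0.0846 with 1 library left out. That of the pore-forming calcium subunits stayed between 0.20 and 0.48, of the auxiliary calcium subunits between 0.14 and 0.28 and of the auxiliary sodium subunits between 0.13 and 0.30.

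For the named channel genes, 264 of the values under alternatives kept the direction and 8 turned it. Cacna2d1 was at -0.15 with voom, -0.0115 with the replicate block and -0.33 to 0.22 with 1 library left out (-0.33 without nicotine 2, -0.05 without control 2). Scn3b ran from -0.00689 to 0.26, Scn7a from -0.0549 to 0.51 (both lowest without nicotine 2), and Cacna1d from -0.0326 without control 1 to 0.28, with -0.02 without nicotine 3. The cause was not tested. Cacna1i had an unadjusted p under 0.05 in 16 of 16 alternatives, Cacna1h in 13, and Cacna1g and Scn2a in 9 each, while the adjusted p of Cacna1i ran from 0.304 to 1. The older quasi-likelihood fit of edgeR was chosen after seeing the data. The order of the channel genes by level per kilobase was not run, since transcript lengths were not used here.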
